A study of Homo sapiens with 6 samples.

Results

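Expression of 10 genes that mark the lung lineage and the alveolar epithelium was examined in H1975 cells before and after exposure to osimertinib (Osi), a kinase inhibitor aimed at mutant EGFR. H1975 is an established human lung adenocarcinoma line that carries EGFR mutations. The genes were chosen by name and fall into lineage transcription factors (NKX2-1, FOXA1 and FOXA2), genes of the surfactant-producing alveolar type 2 cell (SFTPB, SFTA3 and NAPSA) and genes of the thin, gas-exchanging alveolar type 1 cell (HOPX, AQP5, CAV1 and AGER). All 10 were found by symbol among the 27216 rows of the deposited RNA-sequencing table. The table holds 3 parental samples (Osi for 0 h) and 3 adapted samples (Osi for 72 h, 1000 nM on the labels, while the study's reagent list gives another working dose) of this single cell line, labelled wild type in genotype and grown in the same serum-containing medium. Apoptotic cells were rinsed off before lysis, so the adapted RNA came from the cells that stayed attached. The parental columns are headed DMSO, and how long those cells were kept in DMSO is not given, so treatment and time in culture cannot be told apart. The labels also describe RNase R, an enzyme that degrades linear RNA, while the study's methods name total RNA without it; its part in the results was not tested.

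In the developing and adult lung, NKX2-1 is the homeodomain factor that specifies and maintains the respiratory epithelium, and it acts with the forkhead factors FOXA1 and FOXA2, which open chromatin in endodermal tissues. Together they switch on the surfactant programme of alveolar type 2 cells, whose products (surfactant proteins, and the protease napsin A that trims them) keep the air spaces open. Alveolar type 2 cells can give rise to type 1 cells, flat cells rich in caveolae, water channels and the receptor AGER. Lung adenocarcinomas often keep NKX2-1 and napsin A, and pathologists use both to trace a tumour to the lung.

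Values are given as log2(FPKM + 1), FPKM being a read density scaled to transcript length and sequencing yield, and every SD is over n = 3 samples. The unit is not named in the table and was read from the values. Groups were compared with limma, a linear model with a spread shared across genes, on the 12656 rows whose mean reached 1, and a row was called at a Benjamini-Hochberg adjusted p under 0.05. Depth is unknown, since the table holds no counts, so errors are the spread between replicates only. The labels do not say whether replicates were separate cultures, so that spread may be technical. The table's linear values summed to 375342 to 387753 per sample. Parental samples correlated across genes at 0.997 or above, and adapted replicate 1 stood apart from adapted replicates 2 and 3 (r = 0.991 with each, against 0.996 between those 2). In 6 of the 10 genes, adapted replicate 1 was the adapted sample nearest to the parental mean. The cells carried epithelial transcripts throughout, though 5 of 8 epithelial genes (ESRP1, RAB25, KRT8, KRT18 and KRT19) were called lower, where 26.2% of all tested rows were. EPCAM was 7.60 ± 0.02 in parental and 7.45 ± 0.14 in adapted cells, and CDH1 (E-cadherin) 7.46 ± 0.00135 and 7.47 ± 0.33, neither past the threshold (limma, adjusted p = 0.162 and 0.972). None of the 10 genes is among the 147 rows whose values in 1 group are shifted by a constant.

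NKX2-1 and SFTA3 are close neighbours on chromosome 14, and FOXA1 lies farther along the same chromosome. In GENCODE v29 (GRCh38, the build named in the submitters' processing notes), SFTA3 lies on chromosome 14 from 36473288 to 36513829 and NKX2-1 from 36516392 to 36521149, both on the minus strand with 2562 bases between them, and FOXA1 lies 1069 kb further on, from 37589984 to 37596059. RefSeq (GRCh38.p14) draws the longer form of SFTA3 from a start inside NKX2-1, so that one start region serves both genes. That region is shown because NKX2-1 and SFTA3 rose together below, and the FOXA1 start region because FOXA1 was the other factor higher in adapted cells. Both sequences, from RefSeq, are the 250 bases before the start, 5′ to 3′ on the minus strand. Capitals mark matches on either strand to the letters searched for NKX2-1 (CTCAAG or CAAGTG) or FOXA factors (TGTTTAC or TGTTTGC).
NKX2-1 and SFTA3, shared start region, chr14:36519557-36519806: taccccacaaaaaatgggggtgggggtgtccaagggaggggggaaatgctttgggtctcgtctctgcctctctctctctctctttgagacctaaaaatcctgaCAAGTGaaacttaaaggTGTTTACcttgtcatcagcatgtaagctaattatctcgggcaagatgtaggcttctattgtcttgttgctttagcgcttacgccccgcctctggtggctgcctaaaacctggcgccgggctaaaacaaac
FOXA1 start region, chr14:37595250-37595499: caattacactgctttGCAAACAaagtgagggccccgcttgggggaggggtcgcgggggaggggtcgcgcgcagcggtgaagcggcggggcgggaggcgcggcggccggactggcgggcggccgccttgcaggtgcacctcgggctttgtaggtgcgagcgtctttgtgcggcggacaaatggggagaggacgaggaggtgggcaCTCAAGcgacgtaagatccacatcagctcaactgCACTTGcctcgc
The shared region holds CAAGTG 147 bases before the start and, 130 bases before it, TGTTTAC, and CTCAAG lies 24 bases after the start, outside the printed part. The FOXA1 region holds the reverse complement of TGTTTGC at 235 bases, CTCAAG at 46 and the reverse complement of CAAGTG at 12. Of 34943 RefSeq start windows of 300 bases (250 before and 50 after the start), 21.7% hold at least 1 of the NKX2-1 strings, 7.17% at least 1 of the FOXA strings and 1.8% both kinds. Of the 10 genes, 9 have windows in that table (FOXA2 is the other), 15 distinct ones in all, of which 4 hold an NKX2-1 string, 4 a FOXA string and 2, the pair printed above, both. The upstream parts of a NAPSA and a HOPX window are shown for contrast, as NAPSA moved against NKX2-1 and HOPX changed most.
NAPSA, upstream start region, chr19:50369303-50369552: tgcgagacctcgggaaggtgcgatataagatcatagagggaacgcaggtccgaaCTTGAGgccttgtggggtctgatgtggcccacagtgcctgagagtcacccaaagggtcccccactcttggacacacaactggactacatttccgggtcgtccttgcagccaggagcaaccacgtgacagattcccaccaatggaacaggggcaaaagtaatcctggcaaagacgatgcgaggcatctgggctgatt
HOPX, upstream start region, chr4:56681297-56681546: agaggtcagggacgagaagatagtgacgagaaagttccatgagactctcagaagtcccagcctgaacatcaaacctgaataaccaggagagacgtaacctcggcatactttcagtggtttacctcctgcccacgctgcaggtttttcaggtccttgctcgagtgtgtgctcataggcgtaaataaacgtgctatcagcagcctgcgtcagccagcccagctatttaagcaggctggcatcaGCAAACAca
In the NAPSA sequence the capitals are the reverse complement of CTCAAG, 196 bases before the start, and in HOPX the reverse complement of TGTTTGC, 9 bases before it. NAPSA also holds CAAGTG 43 bases after this start. In GENCODE v29 NAPSA begins at 50365830 on the minus strand, so the printed region lies upstream of the gene drawn there. The other NAPSA window (chr19:50365590-50365889) covers that GENCODE start. The other NAPSA and HOPX windows, the single AQP5 window and the 3 CAV1 windows held no match. Other strings searched were GGAATG for TEAD factors (in 14% of all windows), which matched 1 SFTA3 window and the AGER window, and TGANTCA for AP-1 (in 7.72%), which matched both SFTPB windows. CTCAAG and CAAGTG overlap where they share CAAG. These matches describe letters in the windows and no binding was measured.

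All 10 genes separated the groups, with the 3 adapted values on 1 side of the 3 parental values in each, 6 higher and 4 lower in adapted cells. That includes all 7 genes that passed the filter on low values, where 66.3% of the tested rows separated the groups in this way. No such share was computed for the rows below the filter, which hold the other 3 genes. Of the 7 genes that passed the filter on low values, 7 were called, 5 higher (NKX2-1, FOXA1, SFTA3, HOPX and CAV1) and 2 lower (NAPSA and AGER), where 56.9% of all tested rows were called, 30.7% higher and 26.2% lower. HOPX reached the filter only through its adapted values, so neither its call nor its separation of the groups is support for these counts. The other 3 genes, FOXA2, SFTPB and AQP5, fell below the filter and were tested only in a fit without it, in which 9 of the 10 genes were called (FOXA1 was not), against 36.6% of 23902 rows. RNA was taken from whole cultures, where fewer cells with a transcript and less transcript per cell cannot be told apart.

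**Figure D1:**
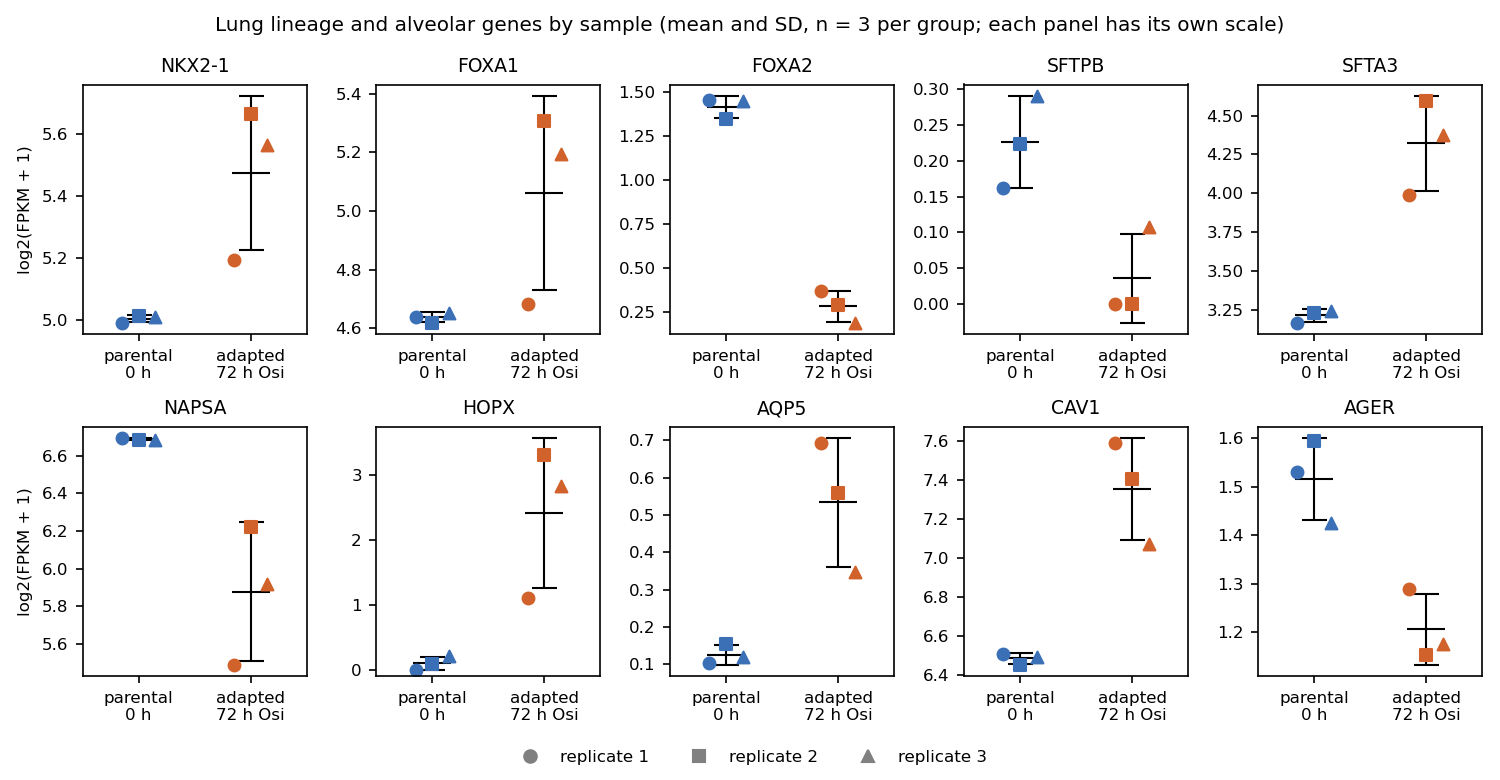
Log2(FPKM + 1) of each of the 10 genes in the 3 parental samples (blue) and the 3 adapted samples (orange), with the replicate number as the marker shape and bars for the mean and SD (n = 3 per group); each panel has its own vertical scale. The groups do not overlap in any panel, and the adapted samples are more spread than the parental samples for NKX2-1, FOXA1, FOXA2, SFTA3, NAPSA, HOPX, AQP5 and CAV1.

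NKX2-1, the lung lineage factor, rose modestly. Its parental values were 4.99, 5.01 and 5.01 and its adapted values 5.19, 5.67 and 5.57. The parental samples were nearly identical and adapted replicate 1 lay closest to them. The log2 fold change was 0.47 (standard error 0.12, limma, adjusted p = 0.0117), or a mean of 31.1 FPKM against 43.9, and it was 0.61 without adapted replicate 1. FOXA1, a pioneer forkhead factor, had parental values of 4.64, 4.62 and 4.65 and adapted values of 4.68, 5.31 and 5.19. Adapted replicate 1 lay only 0.031 above the highest parental sample, while the other two were clearly higher. Its log2 fold change of 0.42 (standard error 0.15, limma) passed the threshold narrowly, with an adjusted p of 0.0451. The call was lost in 5 of the 6 fits that left out 1 sample: without parental replicate 1, 2 or 3 the adjusted p (limma) was 0.103, 0.11 and 0.0991, and without adapted replicate 2 or 3 it was 0.135 and 0.13. Without adapted replicate 1, its fold change was 0.61 on the log2 scale (limma, adjusted p = 6.06e-05).

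FOXA2, the sister forkhead factor, went the other way. Its parental values were 1.46, 1.35 and 1.45 and its adapted values 0.37, 0.29 and 0.19, so that every adapted sample was far below every parental one. The mean went from 1.67 FPKM to 0.218 FPKM, levels low enough that few reads may lie behind the adapted values, so no fold in FPKM is given. With a mean of 0.85 over the 6 samples it missed the filter, and in the fit without a filter the log2 fold change was -1.14 (standard error 0.08, limma, adjusted p = 2.24e-04). Within each sample FOXA1 exceeded FOXA2 by 3.22 ± 0.05 in parental cells and by 4.78 ± 0.40 in adapted cells on the log2 scale, with no overlap. The gap was wider by 1.56 (two-sided exact permutation test, p = 0.1, below which groups of 3 cannot go, adjusted p = 0.133 over the 4 within-sample gaps compared). As FOXA1 was higher and FOXA2 lower in every adapted sample, this gap had to separate the groups, so the test adds no support.

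Among the type 2 genes, the transcript next to NKX2-1 rose and the most abundant one fell. SFTA3, annotated as a surfactant-associated protein in GENCODE and as a long non-coding RNA in RefSeq, had parental values of 3.17, 3.23 and 3.24 and adapted values of 3.99, 4.60 and 4.38. The lowest adapted sample lay 0.75 above the highest parental sample. The log2 fold change was 1.11 (standard error 0.14, limma, adjusted p = 5.49e-04), larger than that of 95.7% of tested rows. SFTA3 had the larger fold change of the neighbours, and the gap between them on the log2 scale was -1.83, -1.78 and -1.77 in parental and -1.20, -1.07 and -1.19 in adapted cells, narrower by 0.64 with no overlap (two-sided exact permutation test, p = 0.1, adjusted p = 0.133). The distance between the groups in SFTA3 exceeded the whole range of NKX2-1 over the 6 samples. This separation was therefore fixed by the single genes, and the test adds no support. The 2 genes share a start region in RefSeq, printed above, and NKX2-1 also overlaps the antisense gene NKX2-1-AS1, which was not analysed here. On their own strand, both genes overlap the transcript AL132857.1 in GENCODE, and the longer RefSeq form of SFTA3 begins inside NKX2-1. Whether the counting was strand-specific is not stated, and strand would not separate reads of same-strand transcripts. Reads of overlapping transcripts, those of the 2 neighbours included, may therefore not have been told apart.

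NAPSA encodes napsin A, the aspartic protease that processes surfactant protein B. It was the most abundant of the 10 genes in parental cells, with values of 6.70, 6.69 and 6.69, and its adapted values were 5.49, 6.22 and 5.92. The parental samples hardly varied, while the adapted samples were spread out, replicate 1 being the lowest. NAPSA fell by 0.81 on the log2 scale (standard error 0.17, limma, adjusted p = 0.00474), from a mean of 102 FPKM to 59.0 FPKM, and it fell by 0.62 without adapted replicate 1. The difference between NAPSA and NKX2-1 within a sample was 1.70, 1.67 and 1.68 in parental and 0.30, 0.56 and 0.35 in adapted cells (two-sided exact permutation test, p = 0.1, adjusted p = 0.133). With NAPSA lower and NKX2-1 higher in every adapted sample, this separation was fixed by the single genes and adds no support. NR1H2, a nuclear receptor gene that overlaps NAPSA on the opposite strand, rose by 0.44 (limma, adjusted p = 9.48e-04).

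SFTPB, which encodes surfactant protein B, was close to the floor in every sample. It was 0.16, 0.22 and 0.29 in parental cells, and 2 adapted samples were listed at 0 with the last at 0.11. In the fit without a filter the difference was -0.19 (limma, adjusted p = 0.0242), at means of 0.17 FPKM and 0.0258 FPKM. Levels this low rest on few reads, how few is unknown, and no fold change is given.

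The type 1 genes were mixed in level and direction. HOPX, an atypical homeodomain protein that does not bind DNA, was listed at 0 in parental replicate 1 and was 0.09 and 0.20 in the others, and its adapted values were 1.10, 3.30 and 2.83. It was near the floor in parental cells and clearly present in adapted cells, at 1.15, 8.86 and 6.12 FPKM, with replicate 1 well below the other two. HOPX rose by 2.31 (standard error 0.50, limma, adjusted p = 0.00629), the largest change among the tested members and larger than that of 99.4% of tested rows. HOPX was among the tested rows only through its adapted values, so this call and this rank are no support. In the fit without a filter its adjusted p was 0.0192 (limma). A pseudocount of 0.1 in place of 1 gave 4.68, so the size of this change depends on how the low parental values are treated.

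CAV1, the coat protein of caveolae, was 6.51, 6.45 and 6.49 in parental and 7.59, 7.41 and 7.07 in adapted cells. Here adapted replicate 1 was the highest. CAV1 rose by 0.87 (standard error 0.12, limma, adjusted p = 8.9e-04), from a mean of 88.6 FPKM to 165 FPKM. Its neighbour and coat partner CAV2 rose by 0.66 (limma, adjusted p = 6.43e-04), and the gap between CAV1 and CAV2 did not separate the groups (1.07, 1.05 and 1.12 against 1.63, 1.15 and 1.09; two-sided exact permutation test, p = 0.2, adjusted p = 0.2). AQP5, the water channel of the type 1 cell surface, was 0.10, 0.15 and 0.12 in parental and 0.69, 0.56 and 0.35 in adapted cells. It stayed under 1 FPKM in all 6 samples although the groups did not overlap, and the fit without a filter put the log2 change at 0.41 (limma, adjusted p = 0.0138).

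AGER, the receptor for advanced glycation end products and a classic type 1 marker, was 1.53, 1.59 and 1.43 in parental and 1.29, 1.15 and 1.18 in adapted cells. The gap between the groups was 0.14, less than the range of the parental samples. AGER fell by 0.31 (standard error 0.09, limma, adjusted p = 0.0207), from 1.86 FPKM to 1.31 FPKM, and a pseudocount of 0.1 gave -0.48. The call was lost without parental replicate 1 or 2 and without adapted replicate 2 or 3 (limma, adjusted p = 0.07, 0.0867, 0.0564 and 0.0526).

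**Figure D2:**
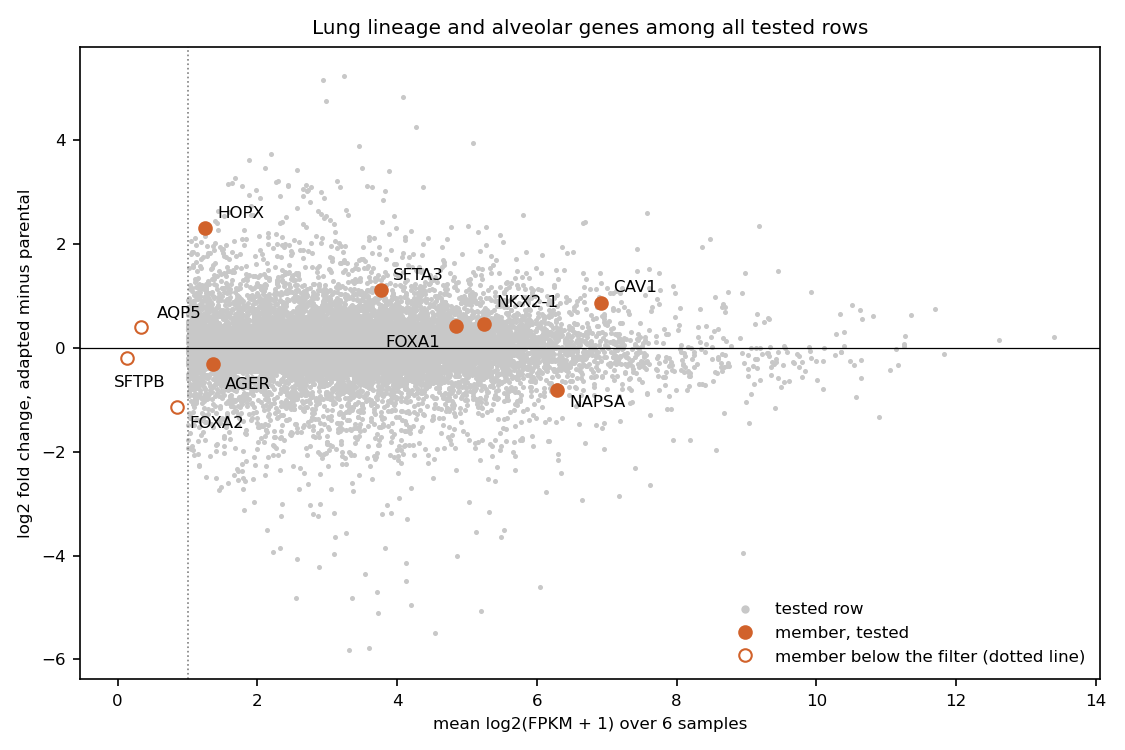
Log2 fold change (adapted minus parental, vertical axis) against mean log2(FPKM + 1) over the 6 samples (horizontal axis) for the 12656 tested rows (grey) and the 10 genes (orange; open circles lie below the filter, drawn as a dotted line at 1). HOPX lies at 2.31 near the filter, SFTA3 and CAV1 lie at 1.11 and 0.87, NAPSA at -0.81, and NKX2-1 and FOXA1 sit within the bulk of rows.

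On the FPKM scale, which is scaled to transcript length, the order of levels in parental cells was NAPSA (102), CAV1 (88.6), NKX2-1 (31.1), FOXA1 (23.9), SFTA3 (8.27), AGER (1.86), FOXA2 (1.67), SFTPB (0.17), AQP5 (0.0908) and HOPX (0.0718). Neighbours in this order did not overlap, other than AGER with FOXA2 and AQP5 with HOPX. In adapted cells CAV1 led at 165, ahead of NAPSA at 59.0, NKX2-1 at 43.9, FOXA1 at 33.0, SFTA3 at 19.3 and HOPX at 5.37. NAPSA then overlapped NKX2-1, NKX2-1 overlapped FOXA1, and HOPX overlapped AGER, whose mean was 1.31. The last 3 in adapted cells were AQP5 (0.454), FOXA2 (0.218) and SFTPB (0.0258), with AQP5 and FOXA2 overlapping.

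**Figure D3:**
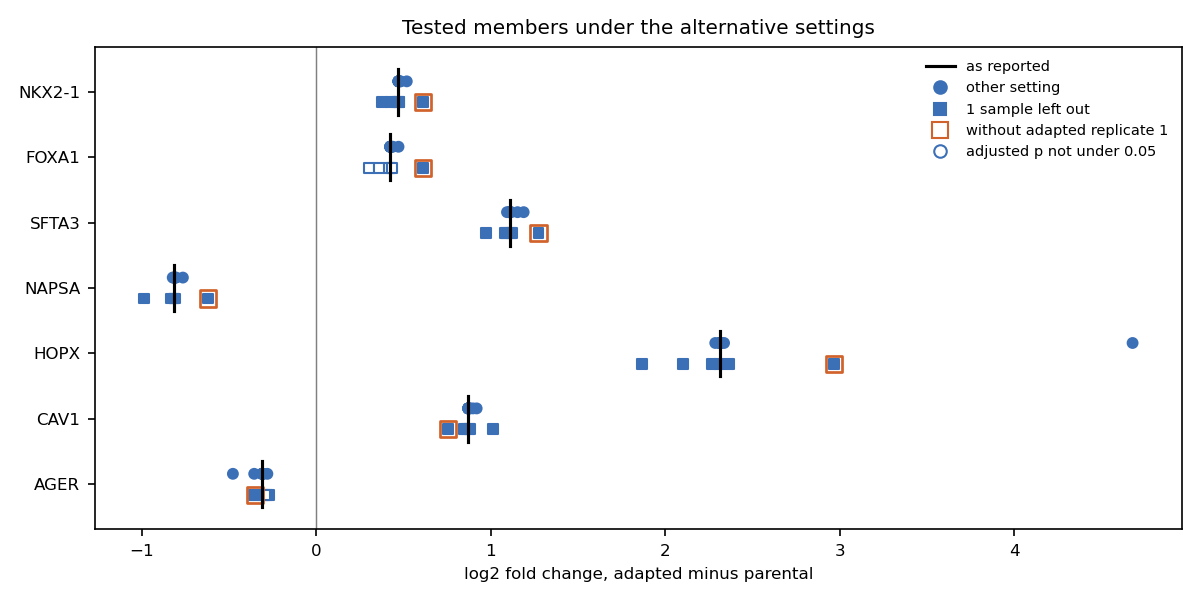
Log2 fold change of the 7 tested genes as reported (black line), under other settings (circles) and with 1 sample left out (squares, the fit without adapted replicate 1 ringed in orange); open markers did not pass an adjusted p under 0.05. All values keep their sign. Among the fits that left out 1 sample, the ringed square lies farthest from 0 for NKX2-1, FOXA1, SFTA3 and HOPX, and nearest to 0 for NAPSA and CAV1.

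Genes between SFTA3 and FOXA1 on chromosome 14 did not move as a block; this interval was looked at after the values were seen. PAX9, a paired-box factor, fell by 0.60 (2.53 ± 0.09 to 1.93 ± 0.23, limma, adjusted p = 0.00503), and NKX2-8, an NK2 homeobox relative of NKX2-1, was 1.35 ± 0.12 and 1.11 ± 0.17 (adjusted p = 0.121). SLC25A21, a mitochondrial carrier, rose by 0.36 (limma, adjusted p = 0.0147) and MIPOL1 did not pass the threshold (1.65 ± 0.12 and 1.87 ± 0.22, adjusted p = 0.179). TTC6, which overlaps FOXA1 on the opposite strand, differed by 0.33 without passing the threshold (limma, adjusted p = 0.0858).

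Other lists of genes are described by counts and medians without a test of the list, and each count is to be read against the shares of all tested rows, 30.7% higher and 26.2% lower, and their median log2 fold change of 0.03. Without adapted replicate 1, 66.1% of all 12656 tested rows were called, 4474 higher and 3896 lower. Counts below from that fit are to be read against these. Of 30 other transcription factors of the lung epithelium, 21 were tested, and 4 rose and 10 fell, with a median of -0.27. Of these, 3 that rose (SOX9, TBX3 and LMO3) passed the filter only through their adapted values, and 2 that fell (CEBPA and NFIA) only through their parental values. ETV4 and ETV5, ETS factors downstream of growth factor receptors in lung buds, fell by 2.62 (4.03 ± 0.11 to 1.42 ± 0.30, limma, adjusted p = 1.67e-05) and fell by 2.43 (4.11 ± 0.03 to 1.67 ± 0.55, adjusted p = 1.77e-04). LMO3, a LIM-domain cofactor, rose from 0.46 ± 0.14 to 1.60 ± 0.59 (limma, adjusted p = 0.00897), and SOX9, a factor of the distal lung bud, from 0.81 ± 0.06 to 1.75 ± 0.15 (adjusted p = 2.68e-04).

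Of 24 other alveolar type 2 genes, 13 were below the filter, among them the surfactant protein genes SFTPC, which was above 0 in parental replicate 3 only (0.07), SFTPA1 (0.21 ± 0.04 and 0.11 ± 0.07) and SFTPD (0.09 ± 0.03 and 0.07 ± 0.12). Of the 11 tested, 5 rose and 2 fell, so that 7 were called where 56.9% of all tested rows were, and 8 rose and 2 fell without adapted replicate 1, when 66.1% of all tested rows were called. The median of the list, 0.91, was that of SFTPA2, the remaining surfactant protein A gene, which was 0.63 ± 0.10 and 1.54 ± 0.86 with overlapping groups and did not pass the threshold (limma, adjusted p = 0.0753). SLC34A2, the phosphate transporter of type 2 cells, rose from 3.07 ± 0.02 to 5.32 ± 0.37 (limma, adjusted p = 5.12e-05), CTSH, a cathepsin that like napsin A processes surfactant protein B, from 4.56 ± 0.08 to 6.26 ± 0.33 (adjusted p = 1.18e-04), and ABCA3, the lipid pump of lamellar bodies, by 1.13 (adjusted p = 6.01e-05). ACSL4, a fatty acid ligase, fell by 1.83 (limma, adjusted p = 8.74e-05), and SFTA2, a surfactant-associated protein, fell by 0.60 (adjusted p = 0.0185).

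Of 22 other type 1 genes, 13 were tested, and 6 rose and 4 fell, with a median of 0.64 (8 rose and 4 fell without adapted replicate 1). GPRC5A, a receptor abundant in lung, rose from 6.19 ± 0.04 to 7.34 ± 0.56 (limma, adjusted p = 0.006), and SEMA3E, a secreted semaphorin, from 2.21 ± 0.15 to 3.20 ± 0.16 (adjusted p = 2.89e-04). VEGFA, the vascular growth factor, fell by 1.74 (limma, adjusted p = 2.76e-06) and IGFBP2, an IGF-binding protein, fell by 1.34 (adjusted p = 8.52e-05). PDPN (podoplanin), a defining type 1 gene, was listed at 0 in all 6 samples.

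Of 9 caveola genes beside CAV1, 7 were tested, and 5 rose and 1 fell, with a median of 0.66. CAVIN2, 1 of the 5, passed the filter only through its adapted values. CAVIN2, a coat protein that shapes caveolae, rose from 0.22 ± 0.09 to 3.35 ± 0.47 (limma, adjusted p = 3.43e-05) and CAVIN1, which caveolae need to form, from 4.59 ± 0.01 to 5.63 ± 0.41 (adjusted p = 0.00234). EHD2, an ATPase at the caveolar neck, fell by 0.29 (limma, adjusted p = 0.00712). Of the 10 other aquaporins, AQP3 alone was tested, and it fell from 4.31 ± 0.05 to 3.51 ± 0.26 (limma, adjusted p = 0.00134).

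**Figure D4:**
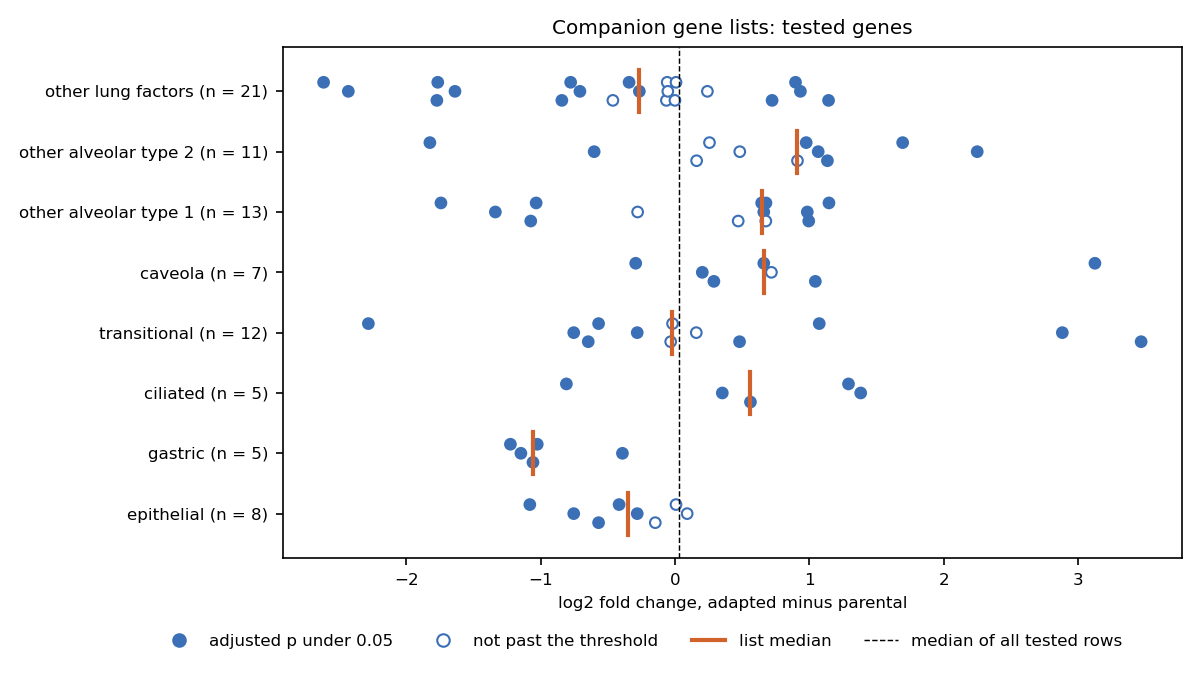
Log2 fold change (adapted minus parental, horizontal axis) of the tested genes of 8 companion lists (filled circles, adjusted p under 0.05; open circles, not past it), with each list's median in orange and the median of all tested rows, 0.03, as a dashed line. The type 2, type 1 and caveola medians lie at 0.91, 0.64 and 0.66, and the lung factor, gastric and epithelial medians at -0.27, -1.06 and -0.35.

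Of 12 genes of the transitional state between type 2 and type 1 cells, 4 rose and 5 fell (6 and 5 without adapted replicate 1), with a median of -0.03. KRT17 and HBEGF passed the filter only through their adapted values. KRT17, a stress keratin, rose by 3.47 (limma, adjusted p = 1.81e-04) and HBEGF, an EGFR ligand, by 2.88 (adjusted p = 4.48e-06), while AREG, also an EGFR ligand, fell by 2.28 (adjusted p = 2.36e-06) and KRT19 fell by 0.75 (adjusted p = 4.74e-04).

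Of 16 gastric and intestinal genes, 5 were tested and all 5 fell, with a median of -1.06, where 26.2% of all tested rows fell. The groups overlapped for 1 of the 5 (FGA), and VSIG1 passed the filter only through its parental values. MUC13, a membrane mucin, fell by 1.15 (limma, adjusted p = 7.55e-04) and VSIG1 fell by 1.06 (adjusted p = 2.97e-04). HNF4A, GKN1, TFF3 and REG4 were listed at 0 in all 6 samples. Airway lineages gave few testable genes. The mucin MUC5B was the 1 secretory gene of 10 tested and fell by 4.71 (limma, adjusted p = 1.01e-05), and the secretoglobins SCGB1A1, SCGB3A1 and SCGB3A2 were listed at 0 throughout. Of 10 ciliated cell genes, 5 were tested, 4 of which rose, led by PIFO (1.38, limma, adjusted p = 0.00236) and DNAH5 (1.29, adjusted p = 8.52e-05), and RSPH1 fell by 0.81 (adjusted p = 0.00181). Of 10 basal cell genes, 3 were tested: DSC3, a desmocollin, rose by 1.46 (limma, adjusted p = 2.36e-04), KRT15 fell by 1.17 (adjusted p = 2.26e-04) and TP63 fell by 0.96 (adjusted p = 0.0115). DSC3 passed the filter only through its adapted and RSPH1 only through its parental values. None of the neuroendocrine genes listed passed the filter.

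Of the 8 defining epithelial genes, 5 fell and none rose (1 rose without adapted replicate 1), with a median of -0.35, led by ESRP1, an epithelial splicing regulator (-1.08, limma, adjusted p = 7.95e-04). Markers of other cell types moved too. The 7 fibroblast genes summed to 3.04 to 3.17 FPKM in parental and 8.60 to 9.33 in adapted samples, and COL1A1, the 1 gene tested, rose by 1.12 (limma, adjusted p = 7.8e-05). The 6 endothelial genes summed to 1.17 to 1.89 FPKM and 1.53 to 3.51, none being tested. That sum joins opposite moves. On the log2 scale PECAM1 was 1.22 ± 0.21 in parental and 0.09 ± 0.02 in adapted cells, and CDH5 was 0.21 ± 0.05 and 1.71 ± 0.47. The 7 leukocyte genes summed to 74.8 to 77.1 FPKM and 14.8 to 29.8, nearly all of it CD68, a lysosomal protein that fell by 1.85 (limma, adjusted p = 3.63e-04), while PTPRC (CD45) was listed at 0 in parental samples and was at most 0.08 in adapted ones, and CD3E was listed at 0 in all 6. The part of these markers in the results above was not tested.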

How the data were processed

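RNA sequencing of 3 parental and 3 adapted samples of H1975 cells was analyzed. The authors deposited 1 table of log2 values per gene and sample, whose unit is not named; they were read as log2(FPKM + 1), because undoing that transform gave numbers of 6 decimals (within 0.01 of the last decimal) in all but 147 of 27216 rows. In each of those 147 rows the values of 1 group returned to 6 decimals after removal of 1 constant from the log2 values; the cause was not tested, and none is a member or companion gene. The submitters' processing notes name hg38, Bowtie2 2.1.0, STAR and edgeR, without their roles, and the study's methods name DESeq2; the quantifier and annotation are not given in the sources used here. No counts were at hand, so limma 3.58.1 in R 4.3.3 (lmFit, eBayes with an intensity trend, unpaired) was run on the log2 values of the 12656 rows with a mean of at least 1, with Benjamini-Hochberg adjustment. DMSO and OSI columns were matched to samples by group and replicate number. Fold changes on this scale understate the change of low genes. Within-sample gaps were compared with exact permutation tests (Python 3.11.15). Positions are from GENCODE v29 and start regions from RefSeq.

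All 10 members are named; of each companion list, the 2 genes that rose most and the 2 that fell most past the threshold without overlap are named, with EPCAM, CDH1, SFTPC, SFTPA1, SFTPD, ABCA3 and PDPN. CAV2 counts in the type 1 and caveola lists, and KRT8, KRT18 and KRT19 in the transitional and epithelial lists. CAV2, SFTPA2, PTPRC, PECAM1, CDH5, genes named only for how they passed the filter or overlapped, RAB25, KRT8 and KRT18, the neighbouring and overlapping genes, and genes listed at 0 were named after their values were seen. The members and lists were chosen with earlier results of these data known. The fit was tested on simulated data. Alternatives were another pseudocount, no filter or a stricter one, 3 rescalings, 2 variance models, a replicate block, leaving out each sample, and leaving out or correcting the rows off the grid.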

Additional observations from a re-analysis of the deposited data

How the results depend on the processing

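NKX2-1, SFTA3, NAPSA and CAV1 kept their direction and their call in all 17 alternatives (log2 fold change 0.38 to 0.61, 0.97 to 1.27, -0.99 to -0.62 and 0.75 to 1.01), and HOPX in the 16 that tested it (1.87 to 4.68, the highest with a pseudocount of 0.1). In the fits with a filter HOPX was tested only through its adapted values, so its calls there add no support. FOXA1 kept its direction in 17 (0.30 to 0.61) and its call in 9; besides the 5 fits that left out 1 sample, the call was lost without a filter (adjusted p = 0.0867), with an equal sum per sample (0.0507) and without a trend (0.0507). AGER kept its direction in 16 and its call in 12. FOXA2, SFTPB and AQP5 were tested in 1 alternative each, the fit without a filter. The number of rows called was 7202, within 1.5 times under every alternative except the stricter filter, a mean of at least 3, which tested fewer rows (4532 called of 7693), and from 5763 to 8370 when 1 sample was left out. Of the 85 companion genes tested, 64 were called (57 to 75 when 1 sample was left out), and 38 of 53 under the stricter filter. Of the 7 members tested in the fits that left out 1 sample, 5 to 7 were called, where 5763 to 8370 of all 12656 rows were. Same-numbered samples did not deviate together (correlations -0.051, -0.031 and -0.020), so the numbers were not taken as pairs, and with the replicate block 6761 rows and all 7 tested members were called. Unknown depth limits what can be said of SFTPB and AQP5, of HOPX in parental cells and of FOXA2 in adapted cells.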
